A study of Mus musculus with 4 samples.

Results

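Hox genes encode homeodomain transcription factors that sit in 4 chromosomal clusters, HoxA to HoxD, and fall into 13 paralogue groups. The genes described here are the 39 features, of 55416 in the count table, whose symbol is Hox with a cluster letter and a group number: 11 HoxA, 10 HoxB, 9 HoxC and 9 HoxD genes, on mouse chromosomes 6, 11, 15 and 2. Their transcripts were followed in single-cell RNA libraries of the femoral epiphysis, the cartilaginous end of the thigh bone, from wild-type mice at postnatal days 7, 8, 10 and 12. Each day was 1 library, and the labels give neither a strain nor how many animals went into a library. A droplet 3′ kit with unique molecular identifiers (UMIs, tags that mark single captured transcripts) was used after enzymatic digestion, straining and removal of red cells, steps that can set the share of each cell type.

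In the embryo Hox genes are switched on in the order in which they lie along the chromosome. The late genes of the HoxA and HoxD clusters then lay out the limb from hip to toe, with group 10 genes known for the thigh, group 11 genes for the shank and group 13 genes for the foot. Connective tissue keeps a record of its position in the Hox genes that it still transcribes after birth, and in blood Hoxa9, with its cofactor Meis1, is known for maintaining stem cells and immature myeloid cells.

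The sequences just upstream of 4 members are shown because Hoxa9 and Hoxa10 are chromosomal neighbours with different levels in blood types, and because Hoxb4 and Hoxb8 lie in the cluster that was high in endothelium. RefSeq held 24 promoters for 22 of the 39 genes, on GRCm38.p6, which is not the build of the counts. Each line gives the 250 bases before the transcription start, 5′ to 3′ on the gene's strand, with TATAAA or CCAAT (either strand) in capitals. The Hoxa9 stretch is chr6:52227371-52227620 (minus strand), the Hoxa10 stretch chr6:52234940-52235189 (minus strand), the Hoxb4 stretch chr11:96318017-96318266 (plus strand) and the Hoxb8 stretch chr11:96281655-96281904 (plus strand).
Hoxa9: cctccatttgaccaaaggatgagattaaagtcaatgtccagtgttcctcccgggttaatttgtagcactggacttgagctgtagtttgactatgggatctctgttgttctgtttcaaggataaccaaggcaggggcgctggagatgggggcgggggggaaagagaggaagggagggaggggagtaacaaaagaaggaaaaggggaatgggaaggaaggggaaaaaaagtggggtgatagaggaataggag
Hoxa10: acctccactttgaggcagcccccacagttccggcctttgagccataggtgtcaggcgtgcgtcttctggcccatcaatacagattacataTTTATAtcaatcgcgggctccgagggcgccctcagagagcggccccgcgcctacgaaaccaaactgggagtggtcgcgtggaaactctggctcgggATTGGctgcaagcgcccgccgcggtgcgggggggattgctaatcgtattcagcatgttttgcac
Hoxb4: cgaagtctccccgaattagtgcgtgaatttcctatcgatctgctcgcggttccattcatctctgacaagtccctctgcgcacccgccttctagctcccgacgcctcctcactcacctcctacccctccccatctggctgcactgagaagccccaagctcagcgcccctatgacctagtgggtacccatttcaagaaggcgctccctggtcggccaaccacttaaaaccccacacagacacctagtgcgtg
Hoxb8: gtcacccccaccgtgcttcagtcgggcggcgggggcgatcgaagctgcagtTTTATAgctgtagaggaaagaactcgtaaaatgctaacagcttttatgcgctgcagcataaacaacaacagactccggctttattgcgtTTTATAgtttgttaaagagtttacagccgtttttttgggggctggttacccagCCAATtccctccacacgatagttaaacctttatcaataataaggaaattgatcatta
No TATAAA or CCAAT stood in the Hoxa9 or Hoxb4 window, whereas the Hoxa10 window shown held 1 of each and Hoxb8 held 2 TATAAA and 1 CCAAT. RefSeq gives Hoxa10 a second start, and its window, chr6:52240855-52241104, held neither motif and 7 CpG. CpG dinucleotides numbered 3 for Hoxa9, 20 for the Hoxa10 window shown, 14 for Hoxb4 and 12 for Hoxb8. TATAAA was present in 4 of the 24 Hox promoters and in 12.4% of all 32851 promoters, and CCAAT in 14 of 24 and in 33.8%. The median was 12.5 CpG per Hox promoter (range 2 to 35) against 6 over all promoters.

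Of the 39 genes, 30 had at least 1 UMI in the 49055 cells kept, and together they held 42179 of 384781623 UMIs. The genes without a UMI were Hoxa3, Hoxa4, Hoxa5, Hoxa6, Hoxc6, Hoxc8, Hoxc9, Hoxd4 and Hoxd12. In the GENCODE M21 annotation, on GRCm38 and so not the authors' own, all exon bases of 8 of these 9 lie inside the span of another gene on the same strand: Hoxa3 to Hoxa6 within each other or a read-through gene, Hoxc6, Hoxc8 and Hoxc9 within Hoxc5, and Hoxd4 within Hoxd3. None of the 30 genes with UMIs was wholly inside another gene and 7 were partly so, among them Hoxc5 (5.37% of exon bases), Hoxa2 (46.9%), Hoxd10 (49.8%) and Hoxc10 (66.1%). The sources used here do not say how reads in such overlaps were counted, so a count of 0 for these genes is not a measure of silence, and UMIs listed under Hoxc5 cannot be told apart from those of Hoxc6, Hoxc8 or Hoxc9.

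Of the 30 genes, 19 reached 5 counts per 1000000 UMIs (CPM) in a cell type of at least 50 cells and are described below: Hoxa2, Hoxa7, Hoxa9, Hoxa10, Hoxa11, Hoxa13, Hoxb2 to Hoxb9, Hoxc4, Hoxc5, Hoxc11, Hoxd8 and Hoxd9. The other 11 ranged from 1 UMI (Hoxb13) to 372 UMIs (Hoxd10) in total. Their highest level in any such type was 4.38 CPM, for Hoxd10 in fibroblasts at day 10.

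Cells were assigned to types by marker genes, and counts were summed per type and library. The kept cells numbered 11309, 11464, 10028 and 16254 at days 7, 8, 10 and 12, with medians of 3103 to 7706.5 UMIs. Library pairs shared 62 to 240 barcodes. Cartilage gave 10412, 7951, 531 and 3838 cells, tendon 41, 296, 803 and 711, endothelium 32, 188, 386 and 452, and blood 119, 490, 4173 and 6256. Bone (osteoblast-lineage) cells numbered 27, 76 and 789 from day 8 on, and the 9 of day 7 fell below the minimum of 20. No type was given to 606, 2152, 3270 and 3334 cells, and 343 of 22732 cartilage and 62 of 1058 endothelial cells lay within 10% above the margin of the gate. Every list's own markers were high in its type, from 78552 to 119948 CPM summed in cartilage and 7465 to 11798 CPM in endothelium. The bone list, which holds the broadly made collagen gene Col1a1, summed to 94774, 175004 and 139819 CPM in bone but also to between 59748 and 177496 CPM in tendon. Cartilage markers in other types, a gauge of free RNA in the droplets, reached 5.59%, 5.26%, 0.791% and 2.33% of the cartilage level in blood, 5.53%, 6.04%, 0.822% and 2.24% in endothelium, and 13.9%, 11.9%, 5.41% and 5.72% in tendon.

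**Figure D1:**
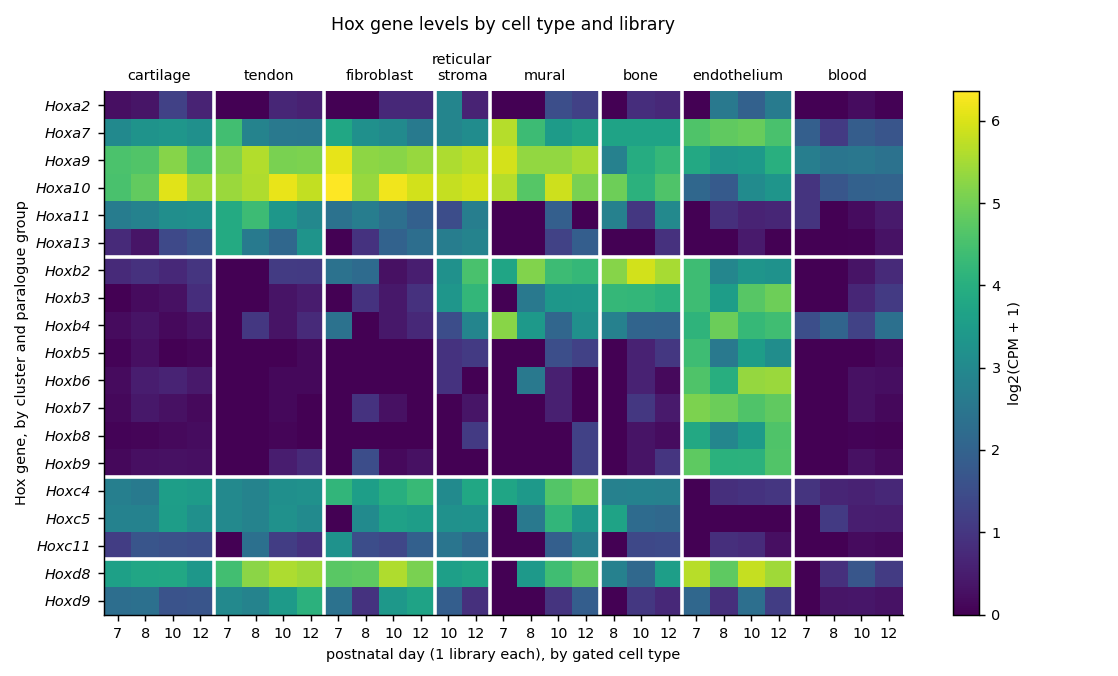
Level of the 19 described Hox genes in each cell type and library, as log2(CPM + 1) by colour. Columns are postnatal days within a cell type, rows are genes by cluster. The HoxB rows are bright in endothelium, Hoxb2 to Hoxb4 in bone, and all are dark in cartilage and tendon.

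Cartilage transcribed mainly HoxA genes of the late groups. All Hox genes together summed to 91.2, 102, 165 and 120 CPM in cartilage at days 7, 8, 10 and 12, and values below follow that order. Groups 9 to 13 held 65.1%, 65.2%, 71.2% and 66.8% of these Hox UMIs, and the HoxB cluster summed to 1.29, 2.53, 2.10 and 2.90 CPM. Shares by paralogue group, here and below, lack the genes without a UMI and carry the limit on overlapping genes given above. Hoxa10, a thigh patterning gene, gave 22.3, 27.7, 66.3 and 42.0 CPM. Hoxa9 gave 22.6, 23.8, 35.7 and 22.5 CPM. Hoxa11, the shank gene, gave 5.38, 6.10, 7.86 and 8.11 CPM, and Hoxa13, the foot gene, 0.699, 0.292, 1.66 and 2.13 CPM. Of the HoxC UMIs as listed, most stood under Hoxc4 and Hoxc5. Hoxc4 gave 5.69, 5.19, 10.9 and 10.2 CPM and Hoxc5 6.0, 6.0, 10.7 and 8.18 CPM. The Hoxc5 values may hold UMIs of Hoxc6, Hoxc8 or Hoxc9, so the HoxC groups are not ranked. The sum was highest at day 10 and lowest at day 7.

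**Figure D2:**
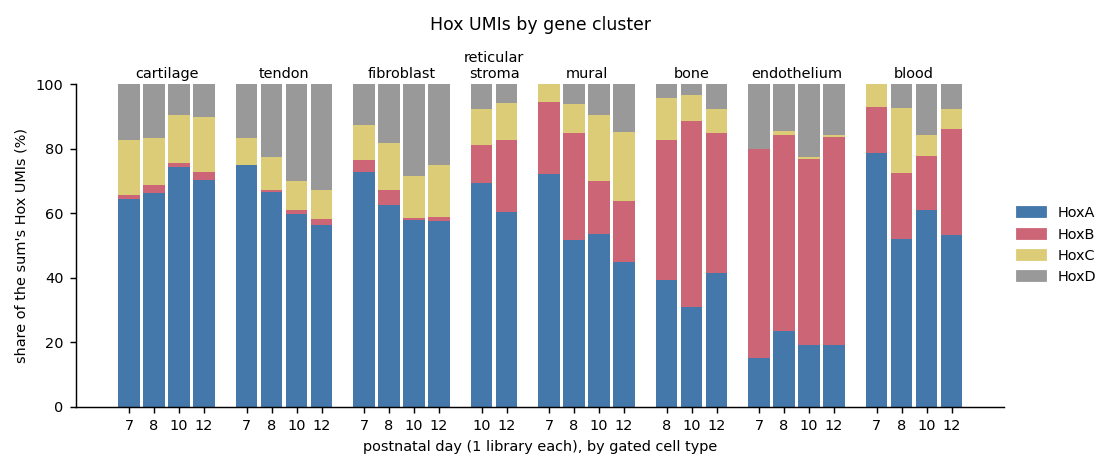
Share of each sum's Hox UMIs (percent) that came from the HoxA, HoxB, HoxC and HoxD clusters, by cell type and postnatal day. HoxB takes 57.5% to 65.0% in endothelium and 43.5% to 57.7% in bone, against 1.28% to 2.48% in cartilage.

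Tendon cells shared the cartilage set and added HoxD transcripts. Of the 20 members that passed the filter on low counts, 8 were higher in tendon than in cartilage (11.9% of all 15981 genes tested were) and 0 were lower (14.8% of all genes were), by edgeR's quasi-likelihood test at a Benjamini-Hochberg adjusted p under 0.05 with library as a block. The median log2 fold change was 0.34 over the 20 members and -0.11 over all genes. Hoxd8, a middle gene of its cluster, gave 20.8, 37.2, 47.0 and 42.8 CPM in tendon against 11.2, 12.5, 13 and 9.23 CPM in cartilage. All 4 tendon values lay above all 4 cartilage values (log2 fold change 1.87 ± 0.31 SE, edgeR adjusted p = 2.46e-05). Hoxd9, its 5′ neighbour, gave 6.92, 6.20, 10.0 and 16.0 CPM against 3.91, 4.05, 2.10 and 2.20 CPM, also without overlap (1.89 ± 0.47, edgeR adjusted p = 0.0032). The day 7 tendon values rest on 3 UMIs of Hoxd8 and 1 UMI of Hoxd9, and the day 8 value of Hoxd9 on 6 UMIs. The Hoxd9 call was lost in 2 of 13 alternatives.

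Hoxa13 gave 13.8, 5.17, 3.35 and 8.79 CPM in tendon and at most 2.13 CPM in cartilage (log2 fold change 2.48 ± 0.49, edgeR adjusted p = 0.0003). The day 7 value rests on 2 UMIs. For Hoxa10 the tendon values were 41.5, 47.5, 70.4 and 54.1 CPM, each above the cartilage value of its own library although the groups overlap (0.63 ± 0.21, edgeR adjusted p = 0.0281), and the call was lost in 7 of 13 alternatives. Hoxa9 gave 34.6, 48.6, 33.1 and 33.3 CPM, higher in 3 of 4 libraries and not at day 10 (0.66 ± 0.20, edgeR adjusted p = 0.0135), a call lost in 3 of 13 alternatives. Hoxd10 was also higher, from 0, 0, 4.11 and 3.70 CPM in tendon and 0.569, 0.486, 0.997 and 0.549 CPM in cartilage (2.10 ± 0.56, edgeR adjusted p = 0.00539), and is named here after its values were seen. The remaining calls, Hoxb4 and Hoxb9, stayed at or under 1.03 CPM in tendon and rest on at most 7 and 8 UMIs in a library.

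Hoxa11 (0.76 ± 0.39, edgeR adjusted p = 0.16), Hoxc4 (0.05 ± 0.23, edgeR adjusted p = 0.92) and Hoxc5 (-0.02 ± 0.34, edgeR adjusted p = 0.985) did not pass between tendon and cartilage. The count of 8 fell to 5 without the day 8 library, 3 without day 10 and 2 without day 12. Hoxd8 and Hoxa13 were called in every alternative run.

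**Figure D3:**
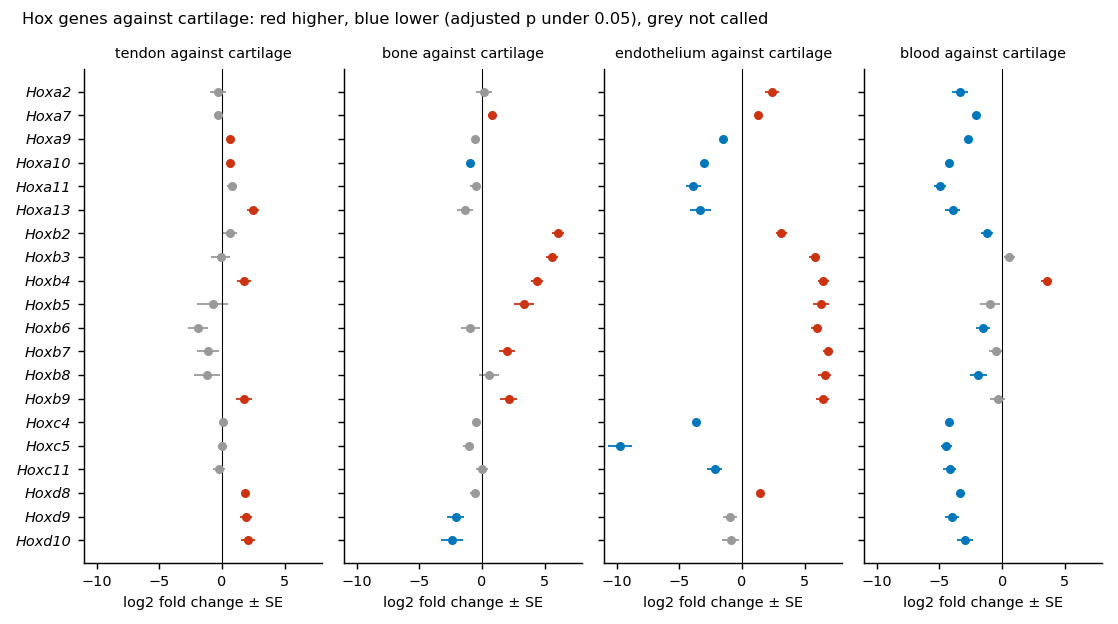
Log2 fold change (± SE, edgeR) of the 20 tested Hox genes in tendon, bone, endothelium and blood, each against cartilage, with red for higher, blue for lower and grey for genes that did not pass. Endothelium shows all of Hoxb2 to Hoxb9 in red and the late HoxA genes in blue, and blood shows Hoxb4 alone in red. The Hoxc5 point in endothelium is a fit to 0 UMIs and no bound.

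Bone cells differed from cartilage by the first HoxB genes. Of the 20 tested members, 7 were higher (11.2% of all genes were) and 3 lower (16.0% of all genes were), with a median log2 fold change of -0.24 against -0.12 over all genes. With DESeq2 the members' median was 0.0661. The lower count is near the share over all genes. Hoxb2 gave 35.7, 59.5 and 45.1 CPM in bone at days 8, 10 and 12 against 0.665 to 0.989 CPM in cartilage. No bone value came near a cartilage value (log2 fold change 6.08 ± 0.46, edgeR adjusted p = 4.09e-11). Hoxb3, the next gene along, gave 17.9, 17.4 and 15.8 CPM against 0 to 0.791 CPM (5.56 ± 0.48, edgeR adjusted p = 5.25e-10). Hoxb4 followed with 5.95, 3.17 and 3.07 CPM against 0.111 to 0.259 CPM (4.37 ± 0.50, edgeR adjusted p = 7.68e-08). The day 8 bone values of Hoxb2, Hoxb3 and Hoxb4 rest on 10 UMIs together, from 27 cells.

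From Hoxb5 to Hoxb9 no member passed 1.06 CPM in bone, so the counted bone signal sat at the early end of the cluster. At day 8 these later members had no UMI among the 168063 of bone, which bounds them only loosely. Hoxb5, Hoxb7 and Hoxb9 were called higher even so, from at most 19, 7 and 18 UMIs in a library. Groups 1 to 4 held 47.8%, 60.9% and 47.4% of the Hox UMIs in bone, against 7.28% to 11.3% in cartilage at the same days. Hoxa7 gave 11.9 CPM in bone in each of the 3 libraries, at day 8 from 2 UMIs (0.79 ± 0.28, edgeR adjusted p = 0.0348), and this call was lost in 9 of 13 alternatives. Without the day 12 library, which holds 789 of the bone cells, the count of 7 fell to 3.

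The members called lower in bone were Hoxa10, Hoxd9 and Hoxd10, all of late groups. Hoxa10 gave 29.8, 15.9 and 23.4 CPM in bone and 27.7, 66.3 and 42.0 CPM in the cartilage of the same libraries (log2 fold change -0.96 ± 0.26, edgeR adjusted p = 0.00625), with the day 8 value resting on 5 UMIs and lying above its cartilage value. Hoxd9 gave 0, 1.06 and 0.657 CPM (-2.09 ± 0.68, edgeR adjusted p = 0.0209), a call lost in 7 of 13 alternatives, and the Hoxd10 call was lost in 5 of 11. Hoxa9 (-0.56 ± 0.23, edgeR adjusted p = 0.0737), Hoxd8 (-0.60 ± 0.38, edgeR adjusted p = 0.263) and Hoxc4 (-0.49 ± 0.27, edgeR adjusted p = 0.181) did not pass, nor did Hoxa11, Hoxa13 or Hoxc11, and Hoxb9, also of a late group, was called higher. None of the 3 lower calls was made when the library block was dropped.

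Endothelium carried the whole run of HoxB genes from group 2 to group 9. Of the 20 tested members, 11 were higher than in cartilage (20.8% of all genes were) and 7 lower (26.0% of all genes were), with a median log2 fold change of 1.36 against -0.13 over all genes. With no filter on low counts, over 30 members, the median was -0.519, while the counts of 11 and 7 stayed. The HoxB cluster summed to 173, 119, 152 and 182 CPM in endothelium against 1.29 to 2.90 CPM in cartilage. All of Hoxb2 to Hoxb9 were called higher, while Hoxb1 (12 UMIs) and Hoxb13 (1 UMI) did not pass the filter. Groups 5 to 8 held 61.2%, 56.4%, 63.1% and 58.1% of the Hox UMIs in endothelium.

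Hoxb7, known for promoting vessel growth when made in excess, gave 33.4, 29.7, 23.2 and 26.8 CPM in endothelium against 0.104 to 0.324 CPM in cartilage. Every endothelial value stood far above every cartilage value (log2 fold change 6.85 ± 0.43, edgeR adjusted p = 1.88e-13). Hoxb4 gave 16.7, 29.7, 18.3 and 20.3 CPM in endothelium against at most 0.259 CPM in cartilage (6.48 ± 0.43, edgeR adjusted p = 5.8e-13). Hoxb6 gave 23.3, 14.9, 39.7 and 41.0 CPM (5.95 ± 0.44, edgeR adjusted p = 1.71e-11). For Hoxb9 the endothelial values were 26.7, 15.7, 15.9 and 23.9 CPM (6.42 ± 0.50, edgeR adjusted p = 1.98e-11), and for Hoxb8 13.3, 6.60, 10.1 and 23.5 CPM (6.59 ± 0.50, edgeR adjusted p = 2.78e-11). Hoxb3 gave 20, 10.7, 25.2 and 29.8 CPM and Hoxb5 20, 4.95, 10.6 and 7.71 CPM, both without overlap with cartilage. Hoxb2 gave 20, 6.60, 8.97 and 8.52 CPM in endothelium, below the bone values of the same days.

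Outside HoxB, 3 members were also higher in endothelium. Hoxa7 gave 23.3, 27.2, 28.4 and 22.1 CPM against 7.14, 8.63, 9.19 and 8.13 CPM in cartilage (log2 fold change 1.29 ± 0.24, edgeR adjusted p = 5.25e-05). Hoxd8 gave 50.0, 26.4, 55.1 and 42.6 CPM in endothelium, all above the cartilage values of at most 13 CPM (1.43 ± 0.30, edgeR adjusted p = 0.000252). Hoxa2 was the third, at 0, 4.95, 2.93 and 5.27 CPM, with 0 UMIs in the 32 cells of day 7 (2.37 ± 0.55, edgeR adjusted p = 0.000684).

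The late HoxA and the HoxC genes were lower in endothelium. Hoxa10 gave 3.34, 2.48, 7.32 and 8.93 CPM, each far below the cartilage value of its library (log2 fold change -3.02 ± 0.27, edgeR adjusted p = 1.67e-10). Hoxa9 gave 13.3, 9.08, 9.70 and 15 CPM against 22.5 to 35.7 CPM, with no overlap (-1.5 ± 0.22, edgeR adjusted p = 1.67e-06). Hoxc4 gave 0, 0.825, 0.915 and 1.01 CPM (-3.66 ± 0.33, edgeR adjusted p = 2.32e-10). Hoxc5 had 0 of 11906753 endothelial UMIs, which allows up to 0.252 CPM (3 counts over the group), and was at least 28.4-fold lower than the 7.14 CPM of pooled cartilage. Hoxa11, Hoxa13 and Hoxc11 were lower as well. The Hoxc4 and Hoxc5 sum in endothelium was 0%, 7.38%, 4.24% and 5.51% of the cartilage level, and cartilage markers there were 5.53%, 6.04%, 0.822% and 2.24%. The part of free cartilage RNA in these low values was not tested.

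**Figure D4:**
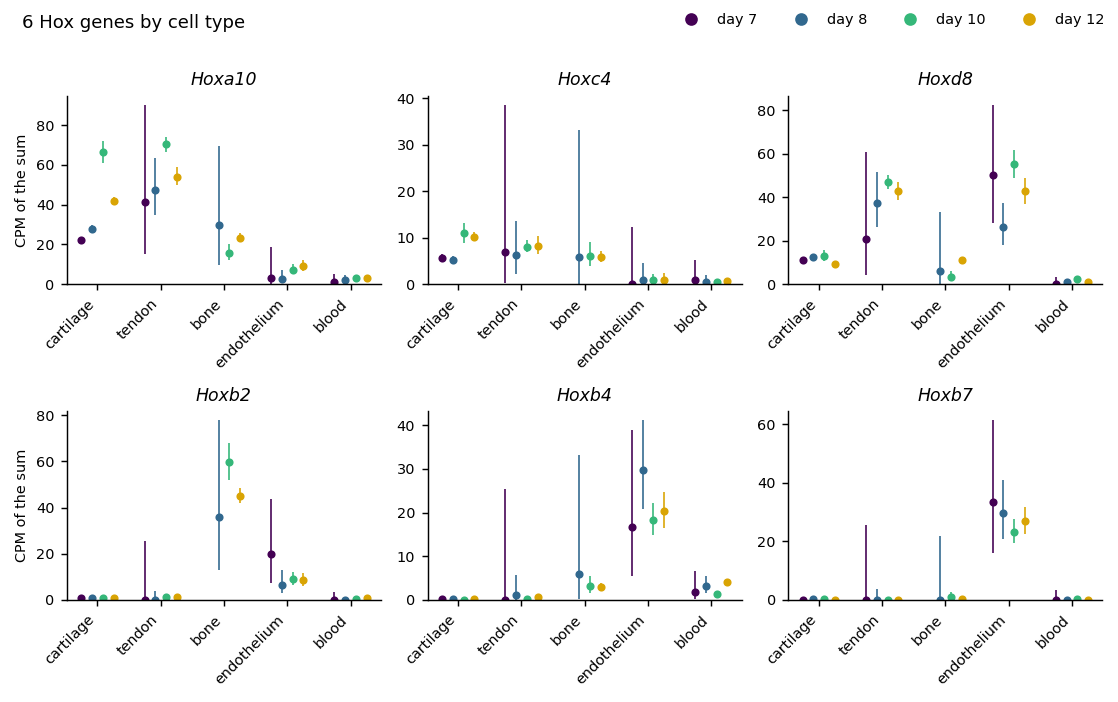
CPM of 6 Hox genes in the summed cells of each type, 1 point per library coloured by postnatal day, with exact Poisson 95% intervals (counting error only). Hoxb2 peaks in bone (35.7 to 59.5 CPM), Hoxb7 in endothelium (23.2 to 33.4 CPM), and Hoxa10 and Hoxc4 are lowest in endothelium and blood.

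The share of cells with a Hox UMI depended on depth, so types were compared after thinning to an equal depth. After thinning each day 12 cell to 1000 UMIs, 15.9% of endothelial cells had a HoxB UMI (65.7% before thinning, median 7724.5 UMIs), against 0.495% of cartilage cells (2.74% before, median 8974.5) and 0.687% of blood cells (4.51% before, median 4634.5). Hoxb2 was found in 3.80% of thinned bone cells (40.2% before, median 21204) and in 0.130% of cartilage cells (0.964% before). Hoxa10 was found in 4.77% of cartilage cells (32.3% before) and 4.78% of tendon cells (43.3% before, median 13015), with overlapping intervals after thinning, and in 0.543% of blood cells (2.33% before). Hoxd8 was found in 4.50% of tendon, 4.87% of endothelial, 1.20% of cartilage and 0.208% of blood cells after thinning, and in 34.9%, 29.0%, 8.6% and 0.879% before. The lowest share named for each gene is given for comparison, and how much of it is background was not tested.

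Blood as a whole held little Hox RNA. All Hox genes summed to 13.1, 15.3, 17.5 and 19.4 CPM in blood, which is 14.3%, 15%, 10.6% and 16.2% of the cartilage level. Of the 20 tested members, 1 was higher than in cartilage (30.1% of all genes were) and 15 lower (32.0% of all genes were), with a median log2 fold change of -2.85 against -0.05 over all genes. Hoxa10 gave 0.933, 2.26, 2.90 and 3.09 CPM in blood (-4.22 ± 0.26, edgeR adjusted p = 1.16e-13), and Hoxd8 0, 0.849, 2.25 and 1.16 CPM (-3.36 ± 0.36, edgeR adjusted p = 3.91e-09). Hoxa9 gave 5.60, 4.53, 4.74 and 4.30 CPM (-2.73 ± 0.22, edgeR adjusted p = 1.11e-11) and Hoxa7 2.80, 1.13, 2.69 and 2.17 CPM (-2.06 ± 0.26, edgeR adjusted p = 8.2e-08). None of these blood values reached a cartilage value.

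These levels stand beside those of cartilage markers in the same cells. Hoxa10 in blood was 4.18%, 8.18%, 4.38% and 7.35% of its cartilage level, and the summed cartilage markers were 5.59%, 5.26%, 0.791% and 2.33%. At days 7 and 8 the gene's share, from 1 and 8 UMIs, could not be told from the markers' share within counting error (intervals of 0.106% to 23.3% and 3.53% to 16.1%), and at days 10 and 12 it lay above it. The part of free RNA in the Hox level of blood was not tested.

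Hoxb4, known for expanding blood stem cells when made in excess, was the member higher in blood than in cartilage. It gave 1.87, 3.11, 1.38 and 4.06 CPM in blood against 0.129, 0.259, 0.111 and 0.242 CPM in cartilage, with no overlap (log2 fold change 3.54 ± 0.43, edgeR adjusted p = 3.43e-08). Within blood its level was 1.96, 4.69, 2.86 and 4.54 CPM in monocytes or macrophages and 3.56, 1.58, 2.91 and 4.79 CPM in osteoclasts, the bone-resorbing cells. In erythroid cells Hoxb4 gave 0.156 CPM at day 10 and 0.561 CPM at day 12. Thinned day 12 cells had a Hoxb4 UMI in 0.795% of osteoclasts (8.40% before thinning) and 0% of erythroid cells (0.331% before).

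Stem and progenitor cells were the blood cells with the most Hoxa9 and Hoxa7. They numbered 25 at day 10 and 58 at day 12, too few for a sum at the other days, and their own markers summed to 2668 and 3087 CPM with all 12 found. Of 9 members tested, 2 were higher than the mean of the other blood types (13.2% of all 14726 genes were) and 0 lower (9.29% of all genes were). That mean leaves out granulocyte progenitors, megakaryocytes and leukocytes given no blood type. Hoxa9 gave 48.8 CPM at day 10 and 85.1 CPM at day 12 in stem and progenitor cells (log2 fold change 4.36 ± 0.35, edgeR adjusted p = 1.14e-10). Hoxa7 gave 27.9 and 23.1 CPM (3.52 ± 0.47, edgeR adjusted p = 3.54e-06). Both lay above the granulocyte progenitors, B lineage and erythroid cells of the same libraries. For Hoxa7 at day 10 dendritic cells came nearest, with 18.3 CPM from 10 UMIs. Their counting interval of 8.77 to 33.6 CPM holds the stem and progenitor value of that day. At day 12 the dendritic interval for Hoxa7, also from few UMIs, holds the stem and progenitor value too. Hoxb3 (2.29 ± 0.85, edgeR adjusted p = 0.0543), Hoxb4 (1.19 ± 0.72, edgeR adjusted p = 0.269) and Hoxa10 (0.15 ± 0.67, edgeR adjusted p = 1) did not pass.

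**Figure D5:**
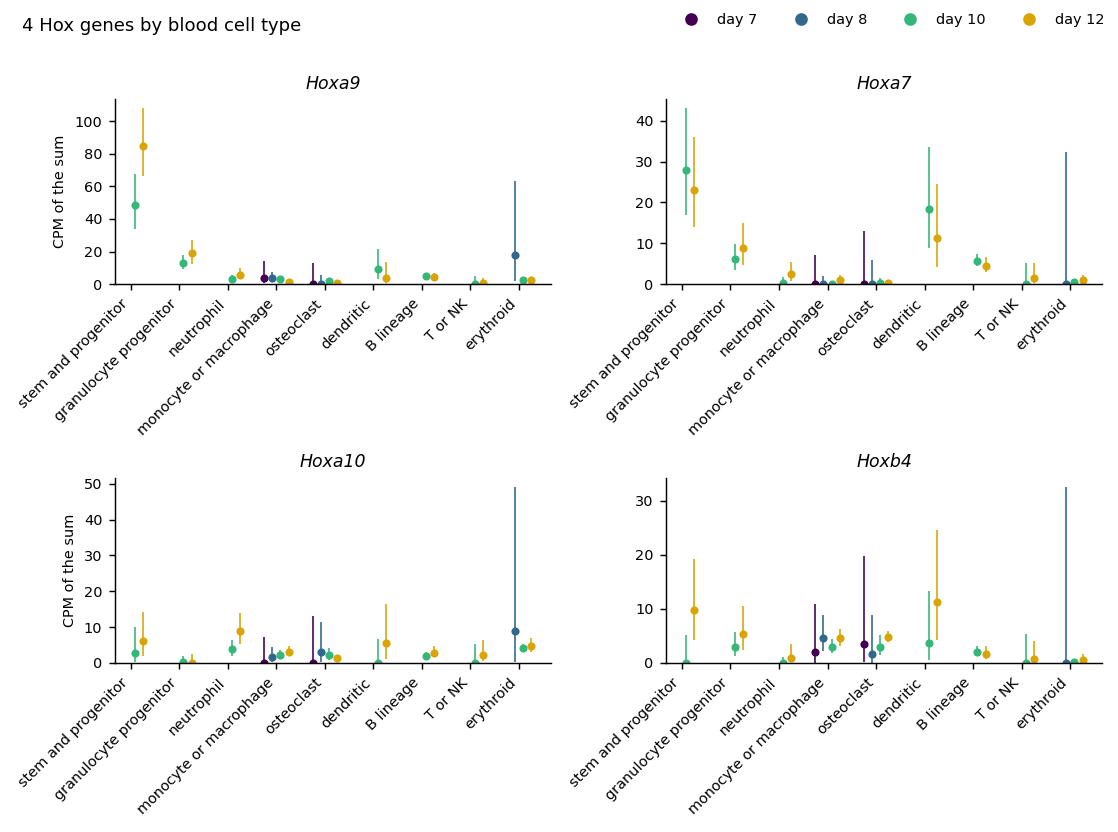
CPM of Hoxa9, Hoxa7, Hoxa10 and Hoxb4 in summed blood types, 1 point per library coloured by postnatal day, with exact Poisson 95% intervals (counting error only). At days 10 and 12 Hoxa9 stands highest in stem and progenitor cells (48.8 and 85.1 CPM), next in granulocyte progenitors (12.8 and 18.8 CPM). The day 8 erythroid point of Hoxa9, 17.6 CPM, rests on 2 UMIs.

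Granulocyte progenitors, the makers of primary granules, kept the same pair at a lower level. Of the 9 members, 2 were higher than the mean of the other blood types (18.2% of all genes were) and 1 lower (11.5% of all genes were). Both counts are near the shares over all genes. The mean used here leaves out stem and progenitor cells. Dendritic cells, which it holds, had more Hoxa7 than granulocyte progenitors at both days, from few UMIs. In granulocyte progenitors Hoxa9 gave 12.8 and 18.8 CPM at days 10 and 12 (log2 fold change 2.45 ± 0.40, edgeR adjusted p = 2.18e-05) and Hoxa7 6.07 and 8.74 CPM (1.92 ± 0.49, edgeR adjusted p = 0.0038). Neutrophils, the later stage of that lineage, gave 3.11 and 5.66 CPM of Hoxa9 and 0.311 and 2.36 CPM of Hoxa7. Hoxa10 had 1 UMI and 0 UMIs in granulocyte progenitors (-3.65 ± 1.00, edgeR adjusted p = 0.00626), a call that was lost without the day 10 or the day 12 library. The Hoxa7 call was lost without the day 10 library.

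The balance of the neighbours Hoxa9 and Hoxa10 differed between types and is given without a test. At days 10 and 12 Hoxa9 held 94.6% and 93.3% of the UMIs of the pair in stem and progenitor cells (35 against 2 UMIs and 70 against 5) and 97.3% and 100% in granulocyte progenitors. In cartilage of the same libraries it held 35% and 34.9%, and in erythroid cells 36.2% and 37.5%. It held 71.2% and 61.5% in B lineage cells, 76.9% and 53.9% in other leukocytes and 57.0% and 62.7% in endothelium. Cartilage markers in stem and progenitor cells were 0.343% and 1.88% of the cartilage level, and in erythroid cells 0.977% and 3.21%. In erythroid cells Hoxa9 and Hoxa10 were at 6.69% and 6.33% of their cartilage levels at day 10, and at 12.5% and 11.1% at day 12. The part of free cartilage RNA in the erythroid balance was not tested.

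At day 12, 43.1% of the 58 stem and progenitor cells had a Hoxa9 UMI (median 12791.5 UMIs) and 12.1% after thinning, against 1.54% and 0.551% of erythroid cells (median 4300). At day 10, 52.0% of 25 cells had one and 0% after thinning, so the thinned share at that depth is too coarse to order the 2 days.

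Hoxa7 and Hoxb4 appeared in further blood types. Dendritic cells gave 18.3 and 11.3 CPM of Hoxa7, from 10 and 6 UMIs, and 3.66 and 11.3 CPM of Hoxb4. B lineage cells gave 5.74 and 4.47 CPM of Hoxa7 and 4.90 and 4.47 CPM of Hoxa9. These levels are given without a test.

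Zones of the cartilage, assigned by their own markers, are described here without a test. In articular cells, the joint surface layer, Hoxd8 gave 41.5, 27.8, 53.9 and 26.8 CPM, against 14.9, 18.2, 22.2 and 15.6 CPM in resting cells and 6.21, 6.69, 5.16 and 5.79 CPM in prehypertrophic cells. Hypertrophic cells gave 7.26, 15.4, 6.0 and 5.27 CPM of Hoxd8, from 2 to 9 UMIs, so its articular value was the highest of the 4 zones in each library. The articular counting interval of Hoxd8 overlaps that of hypertrophic cells at days 7 and 8, and that of resting cells at days 8 and 12. Hoxd9 gave 14.5, 11.3, 9.37 and 7.01 CPM in articular cells (4 to 11 UMIs), 4.32, 4.62, 1.27 and 6.4 CPM in resting, 0.980, 1.46, 0.344 and 0.786 CPM in prehypertrophic and 3.63, 3.85, 3.0 and 2.34 CPM in hypertrophic cells. The articular value of Hoxd9 was the highest as well, but its counting interval overlaps that of resting cells in each library, at day 12 with 3.5 to 12.5 CPM against 4.06 to 9.60 CPM.

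Hoxa10 gave 24.0, 26.3, 76.9 and 60.1 CPM in resting and 9.48, 15.5, 36.8 and 30.4 CPM in prehypertrophic cells. Hoxc4 gave 6.69, 5.19, 22.9 and 17 CPM in resting and 2.29, 2.30, 4.13 and 6.43 CPM in prehypertrophic cells. Both were higher in resting than in prehypertrophic cells of every library. Resting cells did not hold the highest Hoxa10 level of all zones throughout. At day 10 Hoxa10 had 121 of 1574484 UMIs in resting, 26 of 333317 in hypertrophic and 44 of 426880 in articular cells. The day 10 values rest on 80 resting, 87 prehypertrophic and 33 articular cells.

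Between days there was 1 library each, so differences are given as ratios of day 12 to day 7 (with 1 UMI added) and have no replicate check. In cartilage, 17 members had at least 20 UMIs over both days, of which 8 were over 1.5-fold higher (31.9% of all genes were) and 2 over 1.5-fold lower (27.7% of all genes were). The median ratio was 1.49 over the members and 1.11 over all genes. Hoxa10 was 1.88-fold higher, Hoxa13 2.97-fold, Hoxc4 1.79-fold and Hoxa11 1.5-fold. Hoxd9 stood at 0.564 of its day 7 level, and Hoxc10, named here after its values were seen, gave 1.97 CPM at day 7 and 0.132 CPM at day 12. Hoxa9 had a ratio of 0.996. The Hoxa9 share of the Hoxa9 and Hoxa10 UMIs in cartilage was 50.3% and 46.2% at days 7 and 8 and 35% and 34.9% at days 10 and 12. Depth differed in the same split, with library medians of 3103 and 3168.5 UMIs before and 7706.5 and 6563.5 UMIs after, and its part was not tested.

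In endothelium, 13 members had enough UMIs, of which 2 were higher at day 12 (32.4% of all genes were) and 2 lower (19.8% of all genes were). The lower count is near the share over all genes. Hoxb6 was higher, at 1.54, as was Hoxa2, whose ratio is not given because it had 0 UMIs at day 7, and Hoxb2 and Hoxb5 the lower ones, at 0.374 and 0.339. The day 7 sum comes from 32 cells, and against day 8 the counts were 6 higher and 0 lower. In tendon, of 10 members 1 was higher (11.7% of all genes were) and 6 lower (50.7% of all genes were) by this ratio, both near the shares over all genes. Among the 6 were Hoxd10 (0 CPM at day 7 and 3.70 CPM at day 12), Hoxc4 (6.92 and 8.29 CPM) and Hoxc5 (6.92 and 7.29 CPM). These members had the higher CPM at day 12, and their ratios fell below 1 only through the 1 UMI added to the small day 7 sum. The 41 tendon cells of day 7 gave at most 6 UMIs of any member.

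Hox proteins bind DNA with TALE cofactors, the Meis, Pbx and Pknox homeodomain proteins. The shares of all genes called higher and lower were 11.9% and 14.8% in tendon, 11.2% and 16.0% in bone, 20.8% and 26.0% in endothelium, 30.1% and 32.0% in blood, 13.2% and 9.29% in stem and progenitor cells, and 18.2% and 11.5% in granulocyte progenitors, and the counts of this and the next 3 lists stand against them. Of 9 TALE genes tested, 3 were higher and 0 lower in tendon, 1 and 2 in bone, 2 and 4 in endothelium, 1 and 4 in blood, 2 and 0 in stem and progenitor cells, and 1 and 3 in granulocyte progenitors. The higher count in endothelium is near the share over all genes. Meis1, the partner of Hoxa9 in blood, gave 396 CPM at day 10 and 446 CPM at day 12 in stem and progenitor cells, against 15.7 and 22.2 CPM in granulocyte progenitors (log2 fold change over the other blood types 4.05 ± 0.21, edgeR adjusted p = 6.11e-15). In endothelium Meis1 gave 0, 0.825, 5.67 and 6.29 CPM against 19.5, 21.8, 34.6 and 23.3 CPM in cartilage (-2.83 ± 0.36, edgeR adjusted p = 1.86e-07). Meis2 was lower there too (-2.99 ± 0.27, edgeR adjusted p = 2.17e-10), and Pbx3 was higher, at 103, 116, 144 and 244 CPM against 49.1, 44.1, 74.4 and 73.3 CPM (0.96 ± 0.23, edgeR adjusted p = 0.00126). Endothelium, high in HoxB, thus had lower Meis1 and Meis2 and higher Pbx3 levels than cartilage.

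Transcription factors of limb identity were lower in blood and endothelium than in cartilage, and bone and tendon were mixed. Of 12 tested, 12 were lower in blood (32.0% of all genes were), 11 lower and 1 higher in endothelium (26.0% and 20.8%), 6 lower and 4 higher in bone (16.0% and 11.2%), and 3 lower and 4 higher in tendon (14.8% and 11.9%). Pitx1, the hindlimb selector, gave 39.1, 28.5, 50.4 and 41.4 CPM in cartilage and 3.34, 4.13, 3.48 and 2.84 CPM in endothelium (log2 fold change -4.10 ± 0.32, edgeR adjusted p = 1.53e-11). In bone Pitx1 gave 0, 7.66 and 13.1 CPM and was lower as well (-1.99 ± 0.30, edgeR adjusted p = 6.55e-06). Shox2, a factor of the proximal limb, gave 112, 115, 137 and 130 CPM in cartilage and at most 4.95 CPM in endothelium (-5.20 ± 0.26, edgeR adjusted p = 1.5e-15). Its bone values of 83.3, 63.2 and 55.5 CPM were lower than in cartilage too (-0.84 ± 0.22, edgeR adjusted p = 0.00406).

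RNAs transcribed within the Hox clusters without coding for protein were tested as a list. Of 12 listed, 6 were tested, and 4 were higher and 1 lower in endothelium (20.8% and 26.0% of all genes were), 2 higher in bone (11.2%), 1 higher in tendon (11.9%) and 4 lower in blood (32.0%). The tendon count is near the share over all genes. In stem and progenitor cells and in granulocyte progenitors 1 was tested and did not pass. Hoxd3os1 gave 23.3, 35.5, 28.2 and 15.2 CPM in endothelium against 14.3, 11.9, 6.20 and 2.44 CPM in cartilage (log2 fold change 1.40 ± 0.37, edgeR adjusted p = 0.00236). Reads from such a gene and its antisense partner cannot be told apart unless strand was used in counting, on which the sources used here say nothing.

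Chromatin regulators of the Hox clusters, mainly Polycomb and trithorax group proteins, were tested as a list. Of 18 tested, 6 were higher and 1 lower in endothelium (20.8% and 26.0% of all genes were), 6 and 1 in blood (30.1% and 32.0%), 2 and 1 in bone (11.2% and 16.0%), 0 and 2 in tendon (11.9% and 14.8%), 4 and 0 in stem and progenitor cells (13.2% and 9.29%), and 2 and 2 in granulocyte progenitors (18.2% and 11.5%). The higher counts in blood and bone are near the shares over all genes. Their median log2 fold change lay between -0.12 (tendon) and 0.33 (stem and progenitor cells) over the 6 comparisons. Ezh2, the methyltransferase of Polycomb, was higher in blood than in cartilage (1.13 ± 0.24, edgeR adjusted p = 0.00015).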

How the data were processed

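The deposited files hold whole-number UMI counts per gene and cell barcode, made by the authors with the mouse build GRCm39, per the submitters' processing notes. The aligner, the counter and how it treated strand and overlapping genes are not named in those notes or the labels. At one step the labels' extraction protocol also names bowel tissue. Cells with at least 500 genes, 1000 UMIs and at most 15% mitochondrial UMIs were kept. A cell was gated to a type when its mean capped marker score reached 0.25 (cartilage 0.4) and 1.5 times the next type's, which leaves out cells of mixed lineage, and no doublet caller was run. The markers were fixed first and the scoring rule was set with the data in view. Raw counts were summed per type and library (at least 20 cells) and tested with edgeR 4.0.16 in R 4.3.3 (quasi-likelihood, library as a block, all types in 1 fit, Benjamini-Hochberg over all genes tested), with DESeq2 1.42.0 as an alternative. The 4 libraries, 1 per day, are the replicates of a type contrast, and nothing says that they came from separate animals. The p-values thus rest on the spread of the sums that remains after the library block, estimated over all types in the fit. CPM intervals are exact Poisson and shares have exact Clopper-Pearson 95% intervals, both for counting error only, and a count of 0 allows up to 3 counts. The edgeR fit was tested on simulated counts. A member was described when it reached 5 CPM in a type of at least 50 cells in any library, and a gene of another list may be named from 20 CPM. One member is counted but not reported by name here. The members and lists were chosen with earlier results of these data known.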

Additional observations from a re-analysis of the deposited data

How the results depend on the processing

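Of 57 gene calls named by a member and a comparison, 38 were made in every alternative that tested the gene (10 to 13 of them), 19 were lost in at least 1 and 0 reversed. Endothelial counts of 11 higher and 7 lower were within 1.5 times in every alternative fit. Without the library block, tendon had 4 higher members (8 in the fit reported) and bone 0 lower (3 reported). With only the compared types in the fit, tendon had 5 higher, bone 3 higher (7 reported) and bone 5 lower. Clusters in place of gates gave 6 lower members in bone, 2 higher in blood (1 reported) and 2 lower in granulocyte progenitors (1 reported), and hold no stem and progenitor class, so that comparison has no value there. Leaving out the 5% of cells with most UMIs gave 5 lower in bone. Leaving out 1 library at a time gave 2 to 7 higher in tendon, 3 to 7 higher and 1 to 2 lower in bone, and 1 to 2 higher and 0 to 1 lower in granulocyte progenitors. The cause of these moves was not tested, beyond the fewer samples that some of these fits hold.

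Between days, cartilage had 5 higher members against day 8 (8 reported) and 1 lower with clusters (2 reported). Endothelium had 6 higher against day 8, 0 with day 10 as the end point, 4 with 0.5 UMI added and 1 without the 5% of cells with most UMIs (2 reported), and 0, 7 and 4 lower against day 8, with day 10 and without those cells (2 reported). Tendon had 2 higher against day 8, 2 with 0.5 UMI added, 0 with the stricter gate and 0 with clusters (1 reported), and 1 lower against day 8 and 3 with 0.5 UMI added (6 reported). Shares of cells moved with depth: from 15.9% (HoxB in endothelium) to 65.7% unthinned and 30.9% at 2000 UMIs, from 4.77% (Hoxa10 in cartilage) to 32.3% and 9.45%, from 4.78% (Hoxa10 in tendon) to 43.3% and 9.71%, from 3.80% (Hoxb2 in bone) to 40.2% and 8.91%, and from 12.1% (Hoxa9 in stem and progenitor cells) to 43.1% unthinned. No paired analysis was possible because each day is 1 library and all carry replicate number 1, while the types of a library are already blocked.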

Other observations

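3 stromal types outside the main comparisons add levels given here without a test. Fibroblasts carried the tendon set, with 81.1, 40.9, 74.0 and 60.1 CPM of Hoxa10 and 25.6, 26.3, 47.3 and 32.8 CPM of Hoxd8 at days 7, 8, 10 and 12, and at day 12 Hoxb2 gave 0.437 CPM there. Reticular stromal cells, the Cxcl12-making support cells of marrow, joined late HoxA genes with early HoxB genes: at days 10 and 12 Hoxa10 gave 54.8 and 59.6 CPM, Hoxa9 46.6 and 51.8 CPM, Hoxb2 8.22 and 22.2 CPM and Hoxb3 9.13 and 17.4 CPM. Hoxb2 in these cells lay below the bone level of the same libraries, 59.5 and 45.1 CPM.

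Mural cells, which wrap vessels, had their own values. Hoxb7 gave 23.2 and 26.8 CPM in endothelium at days 10 and 12, and mural cells had 1 UMI and 0 UMIs of it. Hoxb2 gave 12.3, 34.5, 19.6 and 17.7 CPM in mural cells, and Hoxc4, near 0 in endothelium, gave 12.3, 9.87, 24.3 and 29.9 CPM. The day 7 mural sum comes from 22 cells.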
